A study of Homo sapiens with 4 samples.

Results

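The genes examined here encode the proteasome, its regulators and its assembly factors. Every array probe annotated to PSMA1 to PSMA7, PSMB1 to PSMB7, PSMC1 to PSMC6, PSMD1 to PSMD14, PSME1 to PSME4, PSMF1 or PSMG1 to PSMG4 was taken; the rule itself uses no measured value. Of these 43 genes, 39 had a probe in the annotation used, among 20044 genes with a probe in all, and PSMA7, PSMC5, PSMD7 and PSMD13 have no values here. Transcript levels came from cultures labelled HT-29, an established line from a human colorectal adenocarcinoma, a label that the markers below do not bear out on chip 1. The RNA was hybridised to Illumina HumanHT-12 V4 BeadChips, whose probes are oligonucleotides on beads. There were 4 cultures with 1 array each, on 2 chips, collected at 48 h. Chip 1 held cells given 20 µM cyclopamine, a steroidal alkaloid that blocks Smoothened in the Hedgehog pathway, and a control called the chip 1 control below. Its title and treatment name the solvent DMSO, but its source name gives tomatidine, a related steroidal alkaloid that the treatment protocol pairs with cyclopamine, and no result assumes either reading. Chip 2 held cells given 20 µM GANT61, which blocks the GLI transcription factors downstream, and a DMSO control. There were no replicates, and the differences below carry no p-value.

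The proteasome degrades proteins that carry ubiquitin chains. Its core is a barrel of outer alpha rings, which gate the entrance, and inner beta rings, which hold the proteolytic sites. A regulatory particle caps the barrel: the base unfolds substrates with a ring of ATPases, and the lid removes ubiquitin. Alternative activators can replace this cap, and dedicated chaperones help to build both the core and the base. When proteasome activity falls short, the transcription factor NFE2L1 is known to raise the transcription of many subunit genes together in human cells.

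The cultures of the chips differed in cell type markers, and this runs through every level set across chips. Of 10 colon epithelial markers, 2 (KRT8 and KRT18) were above background on each array of chip 1, against 9 on each array of chip 2. The summed normalised intensity of these markers was 2077 with cyclopamine and 1842 in the chip 1 control, against 33440 with GANT61 and 34090 in the chip 2 control. EPCAM, CDH1, KRT19, KRT20, LGALS4, CDX2 and VIL1 were below background on both arrays of chip 1 and above it on both arrays of chip 2. The chip 1 arrays thus lack these markers of the labelled cell type. CEACAM5 was below background on all 4 arrays. Of 6 mesenchymal markers 4 were above background on each array of chip 1 and 2 on each array of chip 2, with summed intensities of 6499 with cyclopamine and 6110 in the chip 1 control, against 265.4 with GANT61 and 233.5 in the chip 2 control. Of 3 leukocyte and 3 endothelial markers, 1 of each (CD68 and ENG) was above background on every array, and the CD68 probes gave log2 ratios from -0.15 to 1.75 with cyclopamine. Across 47227 probes Pearson r was 0.982 on chip 1 and 0.983 on chip 2, and 0.873 to 0.877 for arrays of different chips. The part of cell type in any proteasome difference between chips was not tested, and chip and culture cannot be told apart. Each compound was therefore compared with the control on its own chip.

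Under the main normalisation the proteasome genes differed little between either compound and its control. With cyclopamine this did not hold under median scaling or in the deposited series table, where the median of all genes also fell, as given below. All 38 members other than PSMF1 were above background on all 4 arrays, at a detection p under 0.01. PSMF1, whose product inhibits the core, was above background on none. With cyclopamine 33 of the 38 had a log2 ratio under 0.32 in size (the rounded value of the smaller threshold used) against the chip 1 control, or 86.8%, against 59.5% of 8999 genes tested, of which 40.5% were further apart. With GANT61 30 were this close to the chip 2 control, or 78.9%, against 54.2% of 10439 genes, of which 45.8% were further apart. The SD of the log2 ratio over members was 0.22 with cyclopamine and 0.26 with GANT61, against 0.49 and 0.53 over all genes tested. Dim probes spread more, so the same was read among genes with a mean normalised log2 level of at least 9, where 28 of 31 members (90.3%) were this close with cyclopamine against 73.0% of 2677 genes (27.0% further apart). With GANT61 25 (80.6%) were, against 57.9% of 2681 genes (42.1% further apart). In extracts of whole cultures, fewer cells with a transcript and less of it per cell cannot be told apart.

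**Figure D1:**
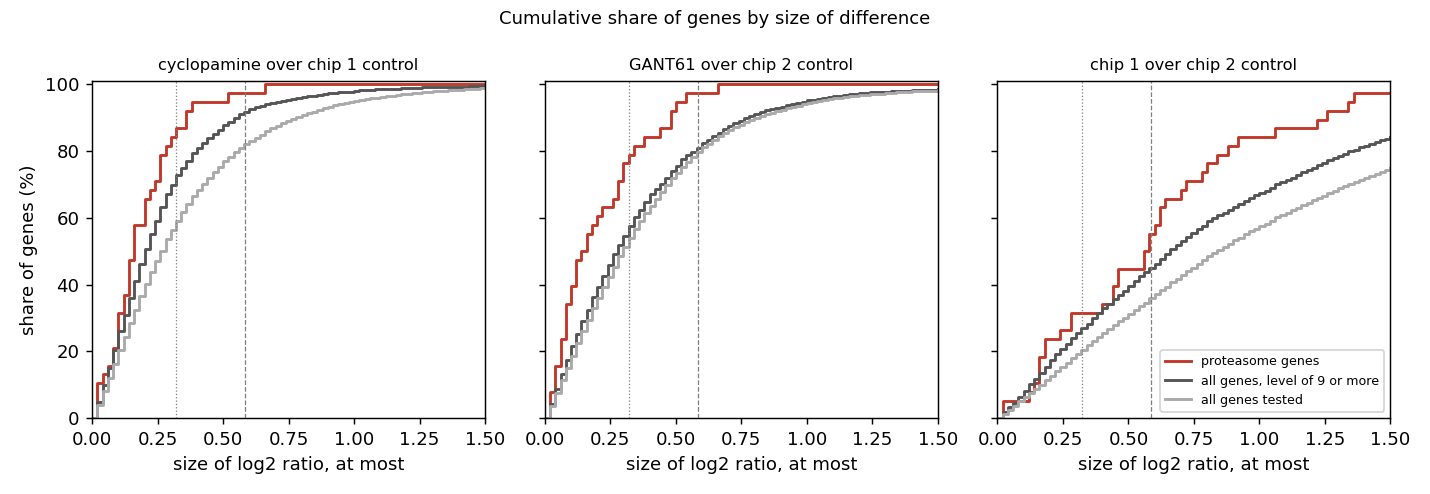
Cumulative share of genes (vertical axis, percent) whose log2 ratio has at most the size on the horizontal axis, for proteasome genes (red), all genes with a mean log2 level of at least 9 (dark grey) and all genes tested (light grey), in 3 comparisons. Dotted and dashed lines mark log2 ratios of 0.32 and 0.58, the second being 1.5-fold. The red curve lies above the others for most sizes in the compound panels, where 86.8% and 78.9% of members lie below the dotted line. In the panel of the controls all 3 curves climb more slowly.

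At 1.5-fold, 0 of 38 members were higher and 1 lower with cyclopamine, against 9.8% and 7.82% of all genes tested, and 1 was higher and 0 lower with GANT61, against 10.6% and 9.29%. At the smaller threshold, 2 members were higher and 3 lower with cyclopamine (all genes 21.4% and 19.1%), and 5 higher and 3 lower with GANT61 (22.7% and 23.1%). In this setting the shares of members were below those of all genes at both thresholds, in either direction. The median log2 ratio of the members was -0.08 with cyclopamine and 0.04 with GANT61, beside -0.01 in both for all genes tested. Above 0 were 13 of the 38 (34.2%) with cyclopamine, against 49.0% of all genes, and 22 (57.9%) with GANT61, against 48.9%. Relative to the median of all genes, the members' median ran over the alternatives from -0.15 to -0.07 with cyclopamine and from 0.01 to 0.06 with GANT61. Different probes of a gene had an SD per probe of 0.246 with cyclopamine (1823 genes) and 0.271 with GANT61 (2343 genes). Beyond that SD lay 11 members with cyclopamine, 5 higher and 6 lower, and 12 with GANT61, 7 higher and 5 lower. The corresponding shares of all genes were 52.2% and 52.9%. Under median scaling and in the deposited series table the medians with cyclopamine moved to -0.38 and -0.34, where the median of all genes had itself moved to -0.25 and -0.19, which puts the members at -0.13 and -0.15 relative to it. In those settings 24 and 22 of the 38 members were lower with cyclopamine by at least 0.32, beside 42.5% and 32.8% of all genes, so the smaller share of members on the lower side did not hold there.

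**Figure D2:**
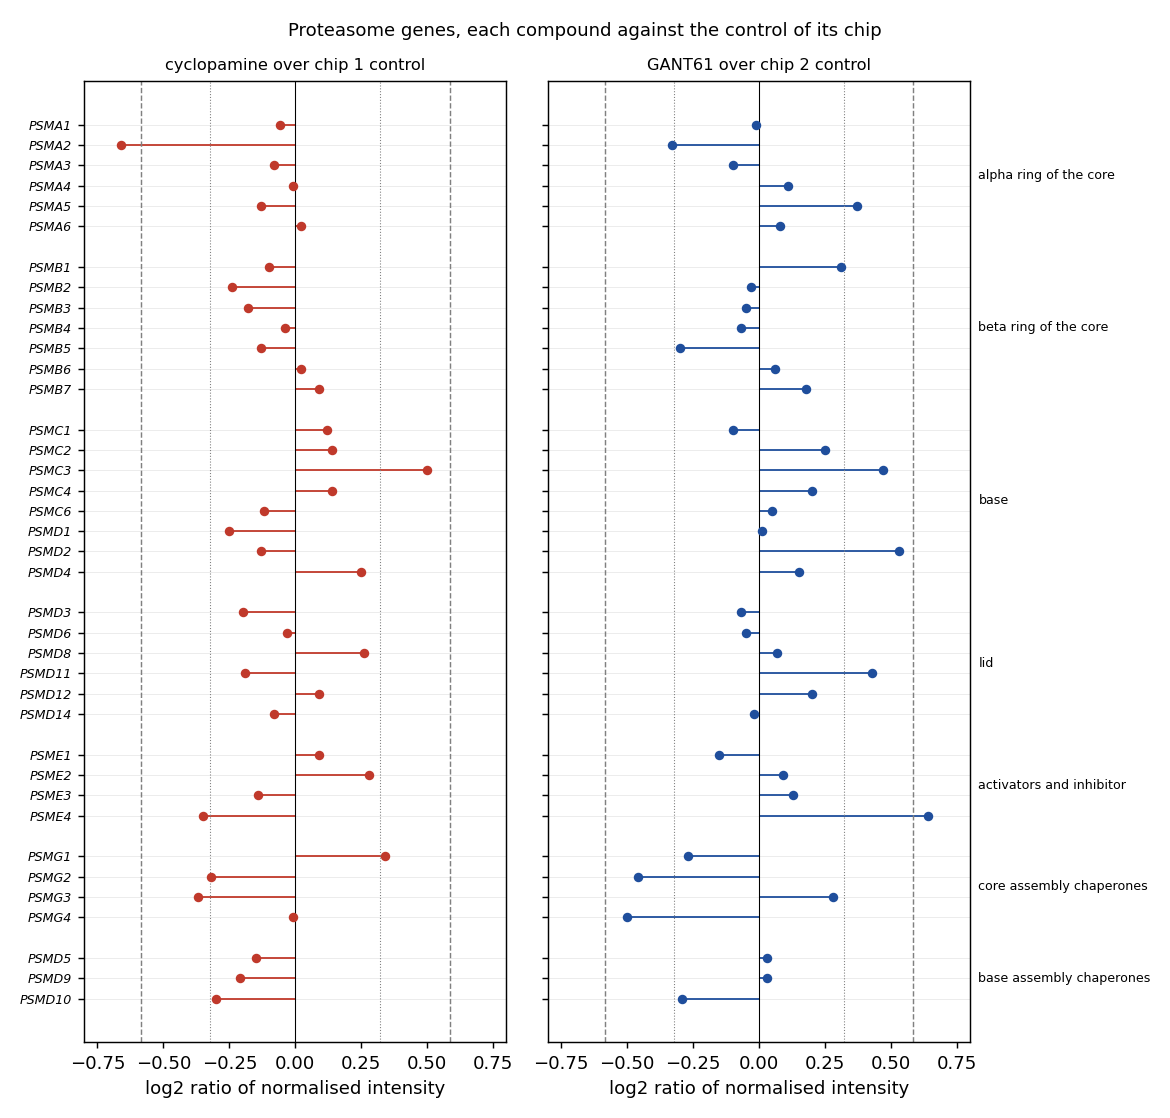
Log2 ratio of normalised intensity for the 38 proteasome genes above background (rows, by class), with cyclopamine over the chip 1 control (left) and GANT61 over the chip 2 control (right), 1 array each. Dotted lines mark log2 ratios of 0.32 in size and dashed lines 1.5-fold. PSMA2 at -0.66 on the left and PSME4 at 0.64 on the right are the points past a dashed line.

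The upstream sequences of 4 members are shown because these genes had the lowest or highest ratios: PSMA2 the lowest and PSMC3 the highest with cyclopamine, PSMG4 the lowest and PSME4 the highest with GANT61. Each is the 250 bases before the RefSeq start of the gene on GRCh38.p14, read 5′ to 3′ on the strand of the gene. Capitals mark TGANNNNGC or its reverse complement GCNNNNTCA, the core of the antioxidant response element that NFE2L1 and NFE2L2 are known to bind, and CCAAT or ATTGG, the CCAAT box.
PSMA2, chr7:42932175-42932424, minus strand: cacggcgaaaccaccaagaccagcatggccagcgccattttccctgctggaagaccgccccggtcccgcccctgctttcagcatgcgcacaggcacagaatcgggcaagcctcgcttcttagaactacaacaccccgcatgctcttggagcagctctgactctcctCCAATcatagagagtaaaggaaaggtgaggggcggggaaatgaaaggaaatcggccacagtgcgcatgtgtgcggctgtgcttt
PSMC3, chr11:47426440-47426689, minus strand: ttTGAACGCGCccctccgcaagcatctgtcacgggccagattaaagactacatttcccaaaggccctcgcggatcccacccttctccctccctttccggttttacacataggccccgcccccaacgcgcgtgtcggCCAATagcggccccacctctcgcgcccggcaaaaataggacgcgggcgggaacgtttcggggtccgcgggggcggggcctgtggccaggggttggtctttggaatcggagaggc
PSME4, chr2:53970994-53971243, minus strand: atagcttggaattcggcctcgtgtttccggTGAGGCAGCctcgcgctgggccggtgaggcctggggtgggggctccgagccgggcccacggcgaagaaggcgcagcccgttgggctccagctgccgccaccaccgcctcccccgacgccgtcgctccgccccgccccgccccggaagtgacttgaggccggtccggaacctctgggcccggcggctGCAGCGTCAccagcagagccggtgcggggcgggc
PSMG4, chr6:3258697-3258946, plus strand: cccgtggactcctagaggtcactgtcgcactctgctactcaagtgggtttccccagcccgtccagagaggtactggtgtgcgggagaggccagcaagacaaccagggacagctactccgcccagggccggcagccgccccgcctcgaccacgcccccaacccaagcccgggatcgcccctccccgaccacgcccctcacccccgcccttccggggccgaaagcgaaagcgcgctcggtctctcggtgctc
The PSME4 window held 2 matches to the element core, 220 and 34 bases before the start, the PSMC3 window 1 match at 248 bases and a CCAAT box at 114, and the PSMA2 window a CCAAT box at 84. No motif searched is in the PSMG4 window. Upstream windows were found for 37 of the 43 genes, 45 windows in all because some genes have several starts. The element core was in 24 of them (53.3%), against 35.2% of 35116 windows of all genes. Its stricter form TGACNNNGC, which is contained in the first motif, was in 12 (26.7%) against 10.9%, and the CCAAT box in 17 (37.8%) against 32.0%. Over the 20 measured members with an element core the median log2 ratio was -0.06 with cyclopamine and 0.03 with GANT61, and over the 13 without one -0.13 and -0.01. The sets overlapped: with GANT61 the ratios ran from -0.46 to 0.64 with a core and from -0.50 to 0.53 without. With cyclopamine they ran from -0.35 to 0.50 with a core and from -0.66 to 0.14 without. Above 0 with cyclopamine were 8 of 20 with a core and 2 of 13 without, beside 49.0% of all genes tested. With GANT61 these were 11 and 6, beside 48.9%. For the stricter form the medians with cyclopamine were -0.15 with it and -0.08 without, the reverse order. With GANT61 they were 0.03 and 0.00. A match is a description of letters, not a site.

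Among the alpha ring genes, 6 of 7 had a probe, and PSMA2 stood apart from the others with cyclopamine. Its normalised log2 level (ILMN_2058512) was 7.48 with cyclopamine against 8.14 in its control, and 7.97 with GANT61 against 8.30 in its control. The treated array was the lower one on both chips. The ratios were -0.66, or 1.58-fold lower, with cyclopamine and -0.33 with GANT61. Deposited intensities were 195.2 with cyclopamine and 321.9 in its control. PSMA2 has a single probe, and RefSeq lists 3 pseudogenes under its name, whose transcripts this probe might bind; their part was not tested. PSMA2 was within 1.5-fold in 2 of the 8 alternatives listed below for the processing, without background correction (-0.53) and with a larger offset (-0.57).

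At the probe that stands for each gene, the other alpha ring genes had small ratios with cyclopamine, from -0.13 for PSMA5 to 0.02 for PSMA6. Their other probes above background on both arrays ran from -0.20 (PSMA3) to -0.01 (PSMA6). PSMA6 had 11.48 with cyclopamine against 11.46 in its control, and 11.65 with GANT61 against 11.57 in its control. PSMA5, an alpha ring subunit, had 12.19 with GANT61 against 11.83 in its control, a ratio of 0.37 or 1.29-fold, and 11.84 with cyclopamine against 11.97 in its control. It was thus higher with GANT61 and slightly lower with cyclopamine. PSMA1, PSMA3, PSMA4 and PSMA6 ran from -0.10 to 0.11 with GANT61 at these probes. Another PSMA4 probe gave -0.20 against 0.11, and another PSMA1 probe 0.19 against -0.01, so the probes of these genes differed in sign. The class medians were -0.07 with cyclopamine and 0.04 with GANT61.

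All 7 beta ring genes were under 0.32 in size with either compound, with ratios from -0.24 (PSMB2) to 0.09 (PSMB7) with cyclopamine and from -0.30 (PSMB5) to 0.31 (PSMB1) with GANT61. The catalytic subunits are PSMB5, which cuts after hydrophobic residues, PSMB6, which cuts after acidic ones, and PSMB7, which cuts after basic ones. PSMB5 had a log2 level of 11.23 with cyclopamine against 11.36 in its control, and 10.28 with GANT61 against 10.58 in its control. The treated arrays were lower, with ratios of -0.13 and -0.30, the second at 1.23-fold. PSMB6 had 12.09 with cyclopamine against 12.07 in its control, and 11.58 with GANT61 against 11.51 in its control. PSMB7 had 12.75 with cyclopamine against 12.66 in its control, and 11.80 with GANT61 against 11.62 in its control. Both were slightly higher with each compound, with ratios of 0.02 and 0.06 for PSMB6 and 0.09 and 0.18 for PSMB7, but both were below 0 under median scaling (PSMB6 -0.25 and -0.19, PSMB7 -0.14 and -0.08) and in the series table, which lower all genes. PSMB1, a beta ring subunit without a proteolytic site, had 12.77 with GANT61 against 12.46 in its control and 11.53 with cyclopamine against 11.63 in its control. PSMB2, another such subunit, had 11.02 with cyclopamine against 11.25 in its control and 10.77 with GANT61 against 10.80 in its control. None of these ratios was beyond the SD between probes of all genes except PSMB5 and PSMB1 with GANT61. That SD was smaller, 0.115 with cyclopamine and 0.146 with GANT61, over 11 proteasome genes with several probes, none of them a beta ring gene. Beyond it also lay PSMB2, PSMB3 (-0.18) and PSMB5 with cyclopamine and PSMB7 with GANT61. The class medians were -0.10 with cyclopamine and -0.03 with GANT61.

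The base had the highest class medians, 0.13 with cyclopamine and 0.17 with GANT61, over 8 of the 9 base genes that the rule names. With cyclopamine, however, its median was -0.16 under median scaling and -0.17 in the series table, or 0.08 and 0.02 relative to the median of all genes there. Of the 8, 5 had ratios above 0 with cyclopamine and 7 with GANT61, against 49.0% and 48.9% of all genes tested. PSMC3, an ATPase of the ring, had the highest ratio with cyclopamine. Its log2 level (ILMN_1809010) was 10.35 with cyclopamine against 9.85 in its control, and 10.04 with GANT61 against 9.57 in its control. It was higher on the treated array of both chips, 1.42-fold with cyclopamine and 1.38-fold with GANT61, and its ratios stayed above 0 under all alternatives, from 0.24 to 0.55 and from 0.27 to 0.47. The ATPase genes PSMC2 and PSMC4 had ratios of 0.14 and 0.14 with cyclopamine and 0.25 and 0.20 with GANT61, while PSMC6 had -0.12 and 0.05. PSMC1, also an ATPase, had 11.87 with cyclopamine against 11.75 in its control and 11.04 with GANT61 against 11.14 in its control, the lowest ratio of the base with GANT61 at -0.10. The other PSMC1 probe had the opposite signs, -0.04 with cyclopamine and 0.16 with GANT61. RefSeq lists 13 pseudogenes of PSMC1. PSMC4 has 3 probes above background, which gave 0.14 to 0.34 with cyclopamine and 0.11 to 0.20 with GANT61.

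PSMD2, a scaffold subunit of the base, had a log2 level of 10.17 with GANT61 against 9.63 in its control, and 10.42 with cyclopamine against 10.55 in its control. It was 1.45-fold higher with GANT61 and 1.10-fold lower with cyclopamine. Neither of its 2 upstream windows held a motif searched. PSMD1, the other scaffold subunit, had 9.95 with cyclopamine against 10.21 in its control and 9.79 with GANT61 against 9.78 in its control, the lowest ratio of the base with cyclopamine at -0.25. PSMD4, a receptor for ubiquitin chains, had ratios of 0.25 and 0.15, and its 3 probes ran from 0.17 to 0.25 with cyclopamine and from -0.03 to 0.15 with GANT61. With GANT61 PSMD4 thus had 1 probe on the other side of 0.

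In the lid, 6 of the 8 genes that the rule names had a probe, and the medians were -0.06 with cyclopamine and 0.03 with GANT61. PSMD11, a scaffold subunit of the lid, had 7.63 with GANT61 against 7.20 in its control, a 1.35-fold difference, and 7.62 with cyclopamine against 7.81 in its control. PSMD8, another subunit, had 8.94 with cyclopamine against 8.68 in its control, with a ratio of 0.26, and 9.61 with GANT61 against 9.54 in its control. PSMD3 had the lowest ratios of the class, -0.20 and -0.07, at levels of 7.98 with cyclopamine against 8.17 in its control and 7.53 with GANT61 against 7.61 in its control. PSMD14, the deubiquitinase that removes the chains, had -0.08 and -0.02 and so lay near 0 with both compounds. PSMD6 and PSMD12 ran from -0.05 to 0.20, but another PSMD6 probe gave 0.18 with cyclopamine and -0.38 with GANT61.

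**Figure D3:**
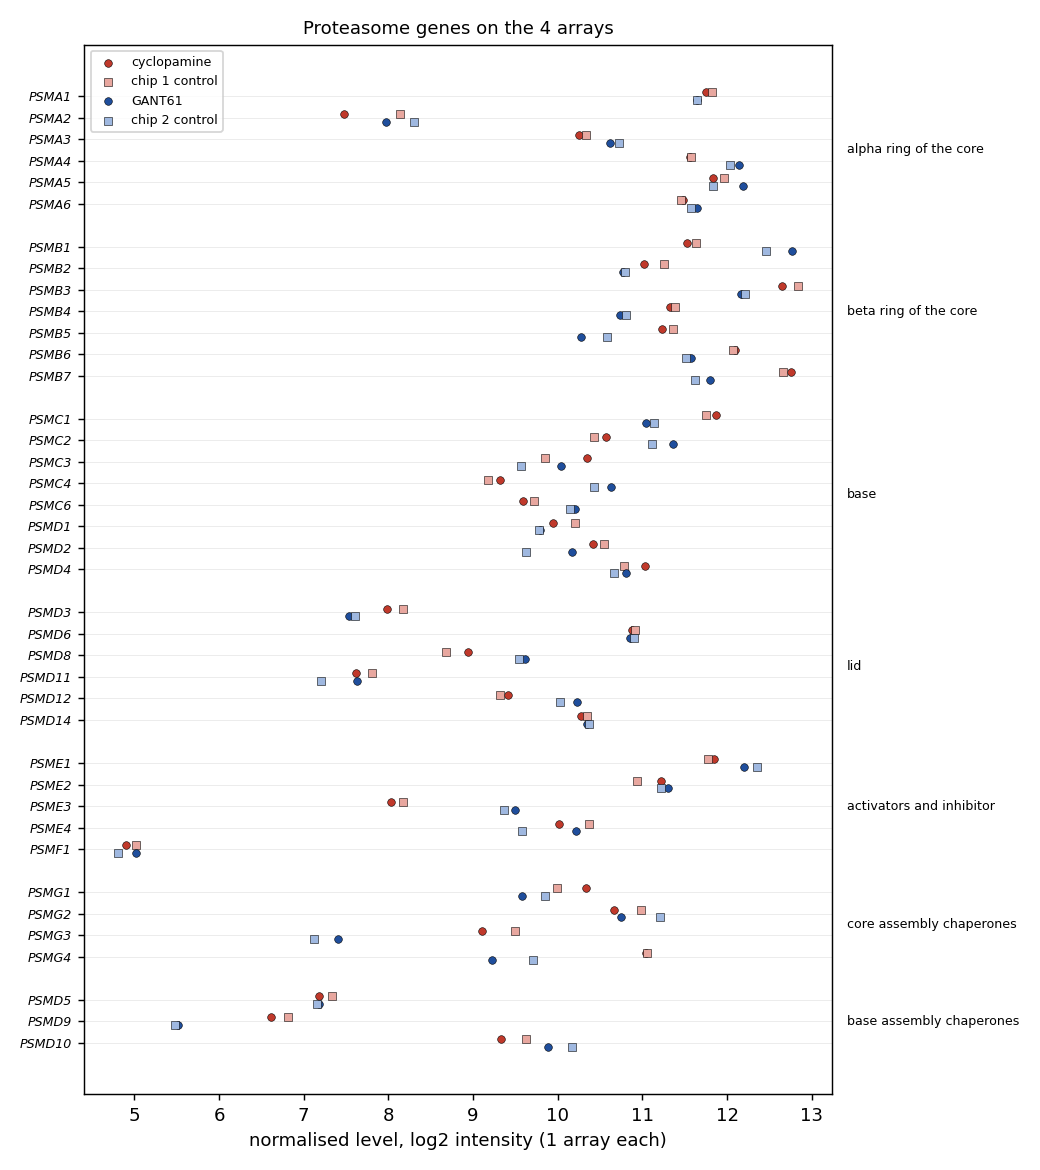
Normalised log2 intensity (horizontal axis) of the 39 proteasome genes with a probe (rows, by class) on the arrays of cyclopamine, the chip 1 control, GANT61 and the chip 2 control, 1 array each. Circles are treated arrays and squares controls. PSMG3 shows the widest gap between the chips, and PSMF1 lies near 5 on every array, below background.

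Among the activators, PSME4 was the member furthest apart with GANT61. PSME4 encodes a large activator of the nuclear proteasome. Its log2 level (ILMN_1763540) was 10.22 with GANT61 against 9.58 in its control, and 10.02 with cyclopamine against 10.37 in its control. The compounds went opposite ways, 1.56-fold higher with GANT61 and 1.27-fold lower with cyclopamine. Deposited intensities showed the same order, 1220 with GANT61 and 882.7 in its control, 962.3 with cyclopamine and 1490 in its control. The ratio with GANT61 ran from 0.44 to 0.64 over the alternatives and was below 1.5-fold in the series table (0.47) and under median scaling (0.44), while relative to the median of all genes it ran from 0.58 to 0.66. The gene has a single probe.

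PSME1 and PSME2 encode the subunits of an activator that interferon is known to induce. PSME1 had 11.85 with cyclopamine against 11.77 in its control, and 12.20 with GANT61 against 12.35 in its control. PSME2 had 11.22 with cyclopamine against 10.94 in its control, and 11.30 with GANT61 against 11.22 in its control. PSME2 was thus 1.21-fold higher with cyclopamine and 1.06-fold with GANT61, and PSME1 differed by 1.06-fold and 1.11-fold, higher with cyclopamine and lower with GANT61. RefSeq lists 6 pseudogenes of PSME2. PSME3, which encodes a nuclear activator of the same family, had ratios of -0.14 and 0.13.

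The core assembly chaperones had the lowest class median with GANT61, -0.36, with 1 of 4 genes above 0, beside 48.9% of all genes tested. PSMG1 and PSMG2 form one dimer and PSMG3 and PSMG4 another, and both help the alpha ring to form. PSMG4 (ILMN_3224204) had 9.22 with GANT61 against 9.71 in its control, or 1.41-fold lower, and 11.04 with cyclopamine against 11.05 in its control. PSMG2 had 10.75 with GANT61 against 11.21 in its control, or 1.38-fold lower, and 10.66 with cyclopamine against 10.98 in its control, a ratio of -0.32. It was the member of this class that was lower by more than the SD between probes with both compounds. PSMG1 had 9.58 with GANT61 against 9.85 in its control, and 10.34 with cyclopamine against 9.99 in its control. Its 2 probes gave -0.55 and -0.27 with GANT61 and 0.35 and 0.34 with cyclopamine, so the sign differed between the compounds at both. PSMG3 went the other way, with 7.40 with GANT61 against 7.12 in its control and 9.11 with cyclopamine against 9.49 in its control. The class median was -0.17 with cyclopamine, and with GANT61 it lay at -0.41 to -0.29 relative to the median of all genes over the alternatives.

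The chaperones of the base, PSMD5, PSMD9 and PSMD10, had ratios of -0.15, -0.21 and -0.30 with cyclopamine and 0.03, 0.03 and -0.29 with GANT61. PSMD10, also known as gankyrin, had 9.33 with cyclopamine against 9.63 in its control and 9.88 with GANT61 against 10.17 in its control. It was lower on both treated arrays at this probe. Its 3 probes disagreed in size with cyclopamine, from -0.51 to -0.04, and in sign with GANT61, from -0.29 to 0.05. PSMD5 had 7.18 with cyclopamine against 7.33 in its control, and 7.18 with GANT61 against 7.16 in its control. PSMD9 had 6.61 with cyclopamine against 6.82 in its control, and 5.51 with GANT61 against 5.48 in its control. On chip 2 it was close to background, with a detection p of 0.0091 with GANT61 and 0.0026 in its control.

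**Figure D4:**
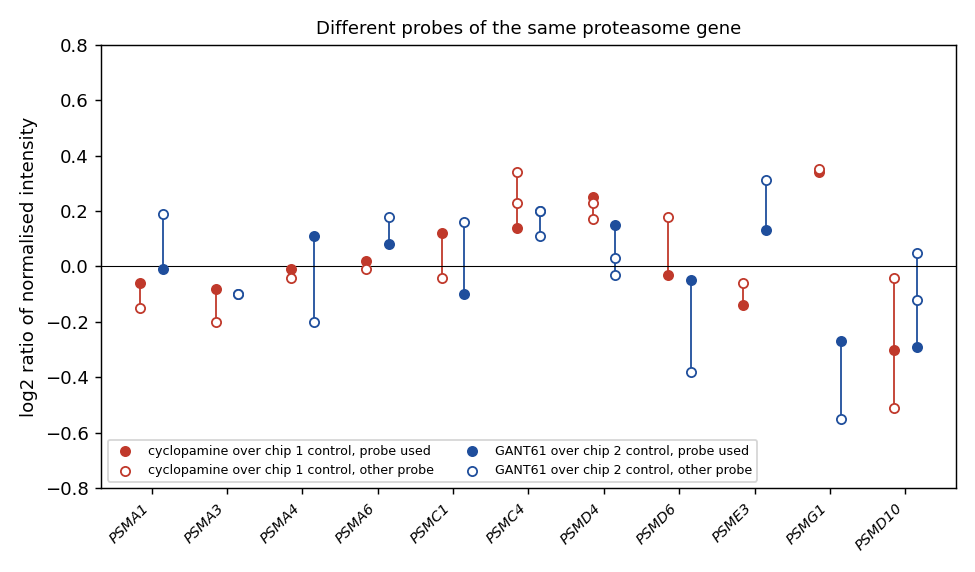
Log2 ratio (vertical axis) at each probe above background on both arrays, for the 11 proteasome genes with several such probes, with cyclopamine over the chip 1 control (red) and GANT61 over the chip 2 control (blue). Filled circles are the probe that stands for the gene and lines join the probes of a gene. All probes share a sign for 8 of the 11 genes with cyclopamine and 6 with GANT61.

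Probes of the same member agreed within an SD of 0.115 with cyclopamine and 0.146 with GANT61 over these 11 genes. Between the comparisons, which share no array, 10 members were higher with both compounds and 13 lower with both, while 12 were lower with cyclopamine and higher with GANT61 and 3 the reverse. The same sign was found in 60.5% of members and in 56.8% of 8176 genes tested in both. Across the 38 members the ratios had a Pearson r of 0.16 and a Spearman rho of 0.15, and across all these genes 0.23 and 0.20. These are descriptions across genes, which are not independent replicates, and the 4 arrays were normalised together. At the probe that stands for the gene, PSMA2, PSMG2 and PSMD10 were lower by more than the SD between probes with both compounds. PSMC3 was higher with both, and another PSMD10 probe gave 0.05 with GANT61.

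The members spread more between the controls than between a compound and its control, with an SD of the log2 ratio of 0.75, beside 1.55 over all genes tested. Of 38 members, 4 were 2-fold higher or more in the chip 1 control, relative to the chip 2 control, and 2 were as much lower, against 19.1% and 23.3% of 10905 genes tested, 42.4% in either direction. PSMG3 was 5.14-fold higher on chip 1 (9.49 in the chip 1 control against 7.12 in the chip 2 control), PSMD9 2.54-fold, PSMG4 2.53-fold and PSMB7 2.06-fold. The level of PSMD9 in the chip 2 control, 5.48, was close to background. In the other direction PSMC4 was 2.38-fold lower on chip 1 (9.18 against 10.43) and PSME3 2.30-fold lower (8.17 against 9.37). Within the beta ring 6 of 7 genes were higher on chip 1 (46.5% of all genes), from 0.46 for PSMB2 to 1.04 for PSMB7. The median of the 7 was 0.57. PSMB1 was 1.77-fold lower, so on these probes 6 genes of this ring went the same way and 1 did not. Alpha ring genes lay between -0.45 and 0.17. The SD between different probes of a gene was 0.595 in this comparison (1835 genes), and 16 of 38 members lay beyond it, beside 63.1% of all genes tested. The epithelial and mesenchymal marker sums given above differ between the same arrays.

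**Figure D5:**
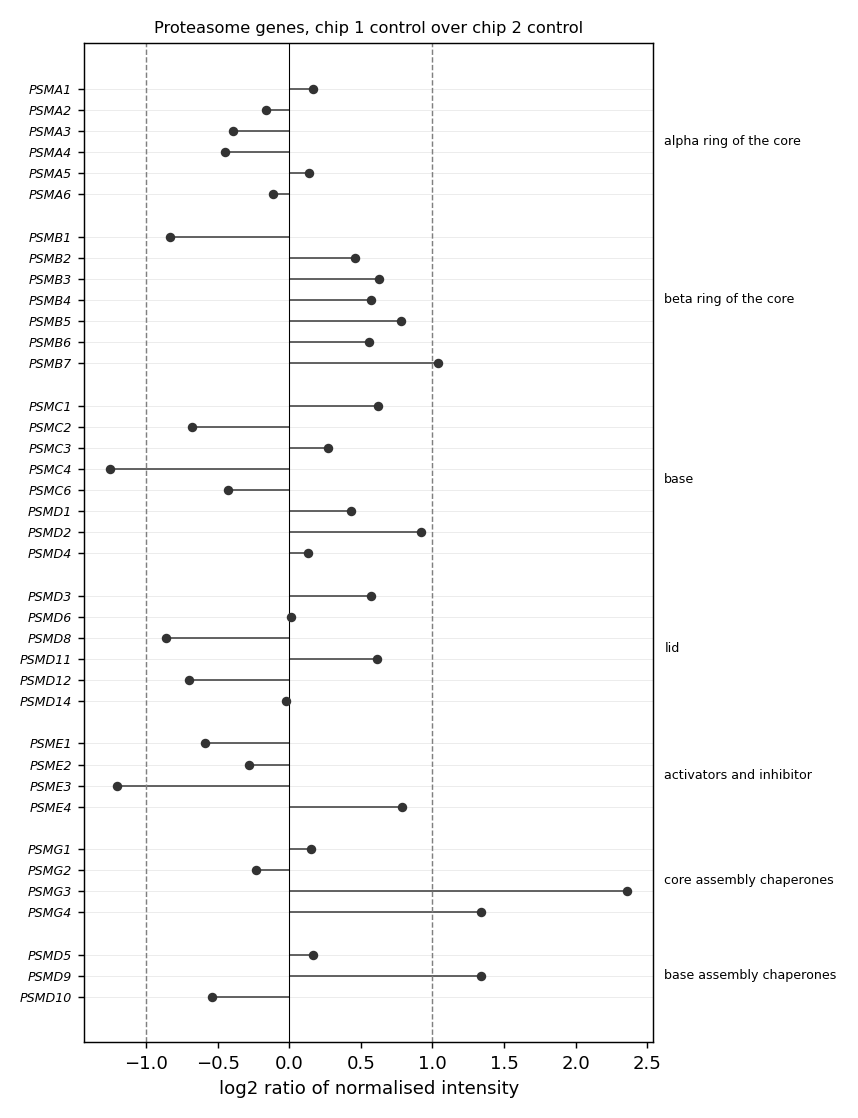
Log2 ratio of normalised intensity (horizontal axis), chip 1 control over chip 2 control, for the 38 proteasome genes above background (rows, by class), 1 array each. Dashed lines mark 2-fold. PSMG3 at 2.36 is the furthest point, and 6 of the 7 beta ring genes lie to the right of 0.

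Other genes of the proteasome were read from a list of 36, of which 32 had a probe. Past 1.5-fold with cyclopamine were 0 of the 28 tested on the higher side and 1 on the lower side, beside 9.8% and 7.82% of all genes. With GANT61 3 of 29 were on the higher side and 2 on the lower side, beside 10.6% and 9.29%, so these counts lay near the background. The immunoproteasome genes, whose products replace the catalytic subunits under interferon, were PSMB8 with ratios of 0.18 and 0.12, PSMB9 with 0.40 and 0.59, and PSMB10 with 0.30 and -0.32. The second probe of PSMB9 gave 0.06 with GANT61, and the probes of PSMB8 ran from 0.18 to 0.65 with cyclopamine and from 0.12 to 0.36 with GANT61. ZFAND5, a zinc finger protein known to stimulate the proteasome, had 12.52 with GANT61 against 11.45 in its control, and 10.07 with cyclopamine against 10.20 in its control. ZFAND2A, a proteasome-associated protein induced by proteotoxic stress, had 8.65 with GANT61 against 7.62 in its control, and 9.70 with cyclopamine against 9.43 in its control. These 2 genes, with ratios of 1.07 and 1.03, were further from the control with GANT61 than any subunit gene. On the lower side were PAAF1, which binds base ATPases, at -0.69 with GANT61, and USP14, a deubiquitinase of the proteasome, at -0.78, although another USP14 probe gave 0.28. With cyclopamine TXNL1, a thioredoxin-like protein of the regulatory particle, had -0.68. The gene of NFE2L1 itself had 9.99 with GANT61 against 9.46 in its control and 9.10 with cyclopamine against 8.80 in its control, and NFE2L2 had ratios of -0.25 with cyclopamine and 0.32 with GANT61. ADRM1, a ubiquitin receptor of the base, had 0.32 and 0.41, although its other probe gave -0.12 with GANT61, and POMP, a maturation factor of the core, 0.19 and 0.07.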

How the data were processed

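Per the labels' protocols, total RNA was amplified to biotinylated cRNA, hybridised to Illumina HumanHT-12 V4 BeadChips and scanned. The deposited tables hold bead intensity per probe on the linear scale and, per the file headers, a detection p-value beside each intensity. The deposited series table holds log2 intensity and equalled the log2 of the intensity tables within 5e-09. Summarisation software is not given in the sources used here. Median intensity ran from 72.8 to 91.1 per array, with 13453 to 17068 of 47227 probes above background (detection p under 0.01). The number of arrays, 1 per group, limits the precision.

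Intensities were background corrected and quantile normalised over the 4 arrays with neqc (limma 3.58.1, R 4.3.3; offset 16, which compresses ratios of dim probes), after a check on simulated data. Probes with 1 symbol in the platform annotation (30111; 8 had several, 17108 none) were brought up to date through Entrez identifiers (30072 matched). A gene was represented by its probe with the highest mean level and compared where that probe was above background on at least 1 array of the pair. Log2 ratios carry no test. Of 39 members, 19 have a RefSeq pseudogene of their name (GRCh38.p14); whether a probe binds one was not tested.

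The members, classes and lists were chosen with earlier results of these data known. Values on every array are given for PSMB5, PSMB6, PSMB7, PSME1, PSME2, members at least 1.5-fold apart with a compound and the extremes of each class, and pathway genes are named when at least 1.5-fold apart; ADRM1, POMP, NFE2L1, NFE2L2, the immunoproteasome genes, PSMG2, the ubiquitin and shuttle genes and members 2-fold apart between controls were named after their values were seen. Alternatives were normalisation within each chip, no background correction, median scaling, an offset of 50, the series table, detection p under 0.05, detection on both arrays and averaged probes.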

Additional observations from a re-analysis of the deposited data

How the results depend on the processing

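No paired analysis was possible because each group has 1 array. Within-chip normalisation, a detection p under 0.05, detection on both arrays and averaged probes gave the proteasome genes medians of -0.10 to -0.08 with cyclopamine and 0.03 to 0.05 with GANT61, and kept every count within 1.5 times. PSMA2 kept its direction throughout but was no longer 1.5-fold lower with cyclopamine without background correction (0 members) and with an offset of 50 (0).

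The scaling mattered more. Under median scaling and in the series table the median of all genes tested was -0.25 and -0.19 with cyclopamine and -0.20 and -0.11 with GANT61, and the share of all 1.5-fold calls on the higher side was 22.6% and 20.5% with cyclopamine, against 55.6%, and 27.2% and 36.4% with GANT61, against 53.2%. With cyclopamine the median of the proteasome genes was -0.38 and -0.34. By a log2 ratio of at least 0.32, 0 and 0 members were higher (all genes 11.5% and 6.8%) and 24 and 22 lower (42.5% and 32.8%). At least 1.5-fold lower were 5 and 4 (17.0% and 8.74%). Class medians there were -0.38 and -0.38 for the alpha ring, -0.42 and -0.42 for the beta ring, -0.16 and -0.17 for the base, -0.35 and -0.33 for the lid, -0.32 and -0.29 for the activators and -0.47 and -0.47 for the core chaperones. With GANT61, 2 and 2 members passed 0.32 upwards, 7 and 6 downwards, 0 and 0 passed 1.5-fold upwards and, with median scaling, 2 downwards. These settings were also centred on the median of all genes, a choice made after seeing the data. With cyclopamine 5 and 7 members were then lower by 0.32 or more, beside 18.2% and 13.9% of all genes. In the centred series values the share of members on the lower side was thus above that of all genes. There 1 member was as much higher with cyclopamine (all genes 16.8%) and 0 were 1.5-fold lower (2.84%). With GANT61 0 were 1.5-fold higher in the centred series values (7.27%).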

Other observations

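Genes that supply ubiquitin or carry ubiquitinated proteins to the proteasome were also measured, each culture against the control of its chip. UBB, a polyubiquitin gene, had a normalised log2 level of 13.70 with cyclopamine against 13.78 in its control, and 12.84 with GANT61 against 12.64 in its control. UBA1, the main ubiquitin-activating enzyme, had 11.35 with GANT61 against 11.90 in its control, a ratio of -0.55, with its probes running from -0.69 to -0.55, and 11.35 with cyclopamine against 11.47 in its control. Of the shuttle and segregase genes, 0 of 6 tested with cyclopamine and 0 of 7 with GANT61 were at least 1.5-fold apart at their brightest probe, beside 9.8% of all genes higher and 7.82% lower with cyclopamine and 10.6% and 9.29% with GANT61, and another UBQLN1 probe gave 0.79 with GANT61. With so few genes these counts are near the background. Their medians were -0.02 with cyclopamine and 0.07 with GANT61. NPLOC4, a cofactor of the segregase VCP, had 0.46 with cyclopamine and 0.30 with GANT61. VCP itself had -0.09 and 0.07. PSMA8 and PSMB11, subunits of the proteasomes of testis and thymus, did not pass background on any array.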
